A study of Mus musculus with 12 samples.

Results

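*Fbn1*, *Fbn2*, *Eln*, *Fbln1*, *Fbln5*, *Mfap2*, *Mfap4*, *Mfap5*, *Ltbp1* and *Emilin1* encode structural proteins of elastic fibres and microfibrils. These 10 genes were taken by name from the 32288 entries of the deposited count table. They were followed in mGFP+ cells sorted from the metaphysis, the zone of long bones next to the growth plate, of mice that carried *Osx-CreERT2*, a tamoxifen-dependent Cre recombinase at the *Osx* (*Sp7*) locus of osteoblasts, and *mTmG*, which marks recombined cells with membrane GFP. All mice received tamoxifen. *Osx-CreERT2*; *mTmG* mice at 3 weeks of age (juvenile) or 8 weeks (adult) gave 4 libraries each, every one from 2 pooled males, collected 2 days after the last of 3 daily doses. The *c-Myc* group (2 libraries) also carried *LSL-tTA* and *Col1a1*::*TetO–c-Myc*, by which Cre starts a transactivator that switches on a *c-Myc* transgene. The *c-Myc* + *R172H* group (2 libraries) carried in addition *Trp53-LSL-R172H*, a Cre-dependent dominant-negative allele of p53. Both induced groups included males and females and were collected 7 days after tamoxifen, which was started at 3 weeks of age, although the dissection notes give 5 weeks. By the methods, mice with the inducible transgene or pregnant females drank doxycycline or tetracycline, withdrawn before analysis, to prevent leaky expression.

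Microfibrils are long filaments of fibrillin that form the scaffold on which elastin is laid down and crosslinked. Their accessory proteins bind fibrillin or join it to elastin, and latent TGF-β binding proteins anchor inactive TGF-β to the same filaments. In bone, microfibrils are better known for holding TGF-β and BMP ligands in the matrix than for elasticity, and mutations of *FBN1* cause Marfan syndrome, with overgrowth of the long bones.

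Total counts per library ranged from 9066154 to 15684412, and 3 counts, the level taken as the detection floor, corresponded to between 0.137 and 0.417 normalized counts per 1000000 (CPM). *Myc* stood at 39.8 to 52.2 CPM in juvenile and 44.7 to 51.2 CPM in adult libraries, against 624 to 657 CPM in *c-Myc* and 639 to 747 CPM in *c-Myc* + *R172H* libraries, which matched the labels for *c-Myc* induction. *Trp53* was at 55.9 to 65.2 CPM in *c-Myc* and 62.2 to 63.3 CPM in *c-Myc* + *R172H* libraries. Neither gene separated the induced groups, so the *R172H* label was not checked by these levels. All 9 osteoblast markers examined, *Sp7* among them, were above the floor in every library. Markers of other cells moved with the groups. The summed level of 9 chondrocyte markers was 8466 to 24994 CPM in juvenile, 33193 to 120964 CPM in adult, 335 to 533 CPM in *c-Myc* and 156 to 160 CPM in *c-Myc* + *R172H* libraries, and the summed level of 9 osteoblast markers was 571296 to 840001, 343042 to 618494, 99840 to 132230 and 56381 to 58318 CPM in the same order. *Col1a1* and *Col1a2* made up most of the osteoblast sum (juvenile means 485198 and 223768 CPM). *Runx2* (log2 fold changes over juvenile -0.71 and -0.65) and *Sp7* (-0.81 and -0.97) fell by less than 2-fold in the induced groups and were not called. *Col2a1* made up most of the chondrocyte sum (juvenile mean 15589 CPM). Of the 9 osteoblast markers, 3 were called higher in juvenile than in adult libraries and 0 lower. These were *Spp1* (log2 fold change 1.23, edgeR adjusted p = 0.000662), *Dmp1* (1.04, edgeR adjusted p = 0.0122) and *Sp7* (0.43, edgeR adjusted p = 0.04996). Between the ages 1 of the 9 chondrocyte markers was called, *Col2a1*, and *Col10a1* went the other way (0.66, not called). The sums of 3 further lists also lay lower in induced than in juvenile libraries. Those of 5 tendon and periosteal markers were 133 to 223 CPM in juvenile, 191 to 358 in adult, 44.7 to 45.5 in *c-Myc* and 26.2 to 27.1 in *c-Myc* + *R172H* libraries, those of 5 marrow stromal markers 269 to 360, 335 to 585, 79.4 to 154 and 63.2 to 82.6 CPM, and those of 5 osteoclast markers, with *Ocstamp* and *Dcstamp* at 0, 203 to 332, 221 to 411, 83.9 to 104 and 52.2 CPM in the same order. Fibroblast markers were low but summed to 0.309 to 1.25 CPM in juvenile and 3.61 to 6.68 CPM in adult libraries, with *Dpt* called lower in juvenile ones (log2 fold change -3.89, edgeR adjusted p = 0.0387). So were *Acta2* (-1.28, edgeR adjusted p = 0.0308) and *Tagln* (-1.73, edgeR adjusted p = 0.0357) of the smooth muscle and pericyte list, whose 7 genes summed to 37.8 to 63.7 CPM in juvenile, 69.5 to 75.5 in adult, 48.0 to 56.7 in *c-Myc* and 20.9 to 38.2 in *c-Myc* + *R172H* libraries. *Notch3* made up most of this sum at both ages (means 43.8 and 40.5 CPM) and was not called between them (log2 fold change 0.11). *Rgs5* was called higher in both induced groups than in juvenile libraries (mean 1.49 CPM). Its means were 18.5 CPM with *c-Myc* (edgeR adjusted p = 0.000346) and 7.46 CPM with *c-Myc* + *R172H* (edgeR adjusted p = 0.00844). Of the 6 genes of this list tested there, 2 and 3 were called lower. Endothelial markers summed to at most 2.98 CPM and haematopoietic markers to at most 7.08 CPM in any library. The part of these cell types in the differences below was not tested, and in bulk samples fewer cells of a type cannot be told apart from less RNA per cell. *Xist* was expressed in replicate 2 of both induced groups (233 and 211 CPM) and in no other library above 1.24 CPM.

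Promoter sequences of 6 of the 10 genes were held in the RefSeq table (GRCm38.p6), and 3 of them are shown because these genes behaved differently in the comparisons below. *Mfap2* had the largest decrease with *c-Myc*, *Fbln5* was the member called between the ages, and *Fbln1* did not reach the fold required for a call in either induced group. Each run lies upstream of an annotated start, is read 5′ to 3′ on the strand of its gene, stops before the first exon base and has motif letters in capitals. The *Mfap2* run is chr4:141010174-141010417 on the plus strand, the *Fbln5* run chr12:101819120-101819369 on the minus strand and the *Fbln1* run chr15:85205699-85205948 on the plus strand. The RefSeq start of the *Fbln5* run lies outside the gene body in GENCODE vM21, which reaches to 101819055. Bases just after that start were found in no GENCODE vM21 transcript of the gene.
Mfap2: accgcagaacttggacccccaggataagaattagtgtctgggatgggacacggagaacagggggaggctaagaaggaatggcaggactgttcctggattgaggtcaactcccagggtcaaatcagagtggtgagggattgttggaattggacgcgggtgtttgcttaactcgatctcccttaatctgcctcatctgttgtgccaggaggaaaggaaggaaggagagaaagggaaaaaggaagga
Fbln5: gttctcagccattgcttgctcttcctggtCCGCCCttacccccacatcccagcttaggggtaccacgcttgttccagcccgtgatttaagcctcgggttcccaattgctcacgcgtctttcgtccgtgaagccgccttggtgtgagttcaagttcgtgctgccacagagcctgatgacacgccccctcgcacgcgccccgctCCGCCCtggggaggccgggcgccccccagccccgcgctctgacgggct
Fbln1: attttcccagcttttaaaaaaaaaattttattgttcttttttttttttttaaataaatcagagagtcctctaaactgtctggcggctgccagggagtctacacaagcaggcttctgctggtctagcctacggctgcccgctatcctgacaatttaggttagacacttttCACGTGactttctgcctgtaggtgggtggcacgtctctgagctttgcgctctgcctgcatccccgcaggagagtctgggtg

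Both strands of the 250 bases before each start were searched for 4 motifs that do not overlap one another in these runs. CACGTG, the E-box form bound by MYC with its partner MAX, lay in the *Fbln1* run, starting 81 bases before the start, and in 6.02% of all 32851 promoter windows. GGGCGG, the GC box, was met as its reverse complement at positions -221 and -48 of the *Fbln5* run and lay in 32.7% of all windows. The *Mfap2* run held none of the 4. A second *Mfap2* window, not shown (chr4:141010431-141010680, with 96 exon bases of the gene), held GGGCGG at positions -51 and -7. Over the 10 windows of the 6 genes, CACGTG was present in 2, both of *Fbln1*, and GGGCGG in 4, of *Fbn1*, *Fbln1*, *Fbln5* and *Mfap2*. The 2 *Fbln1* windows overlap and hold the same CACGTG site, so this is a single match. The RUNX-type motif TGTGGT (14.0% of all windows) was present in 1, of *Ltbp1*, and the AP-1-type motif TGANTCA (6.75% of all windows) in 0. A letter match is a description and does not show binding.

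The levels of the 10 genes were first compared with one another, as CPM per kilobase of exon. *Emilin1*, whose protein lies at the border between elastin and microfibrils, was the highest of the 10 in every group, with a mean of 73.2 CPM per kb in juvenile, 95.0 in adult, 27.7 in *c-Myc* and 24.6 in *c-Myc* + *R172H* libraries. *Mfap2* came second in juvenile osteoblasts with 36.0 CPM per kb, ahead of *Fbn1* with 15.1. *Eln* was the lowest of the 8 genes with appreciable counts in juvenile and adult osteoblasts, with 0.948 and 0.866 CPM per kb. In juvenile and adult osteoblasts *Emilin1*, *Mfap2*, *Fbn1* and *Fbn2* were thus far above *Eln* per kb, while *Mfap4* and *Mfap5* lay below it. In *c-Myc* + *R172H* libraries *Eln* (0.824 CPM per kb) lay above *Fbn2* (0.560) and *Fbln5* (0.430). *Mfap4*, whose protein binds fibrillin and elastin, and *Mfap5*, a second microfibril-associated glycoprotein, were near the limit of detection. *Mfap4* had 2 counts in 1 juvenile library, 1, 1, 5 and 6 counts in the adult libraries and 1 count in 1 *c-Myc* + *R172H* library, and *Mfap5* had 8 and 6 counts in 2 adult libraries and 1 count in 1 *c-Myc* + *R172H* library. Both were at 0 in all other libraries, did not pass the filter on low counts and were tested in no comparison of the main fits, so the tests below cover 8 of the 10 genes.

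**Figure D1:**
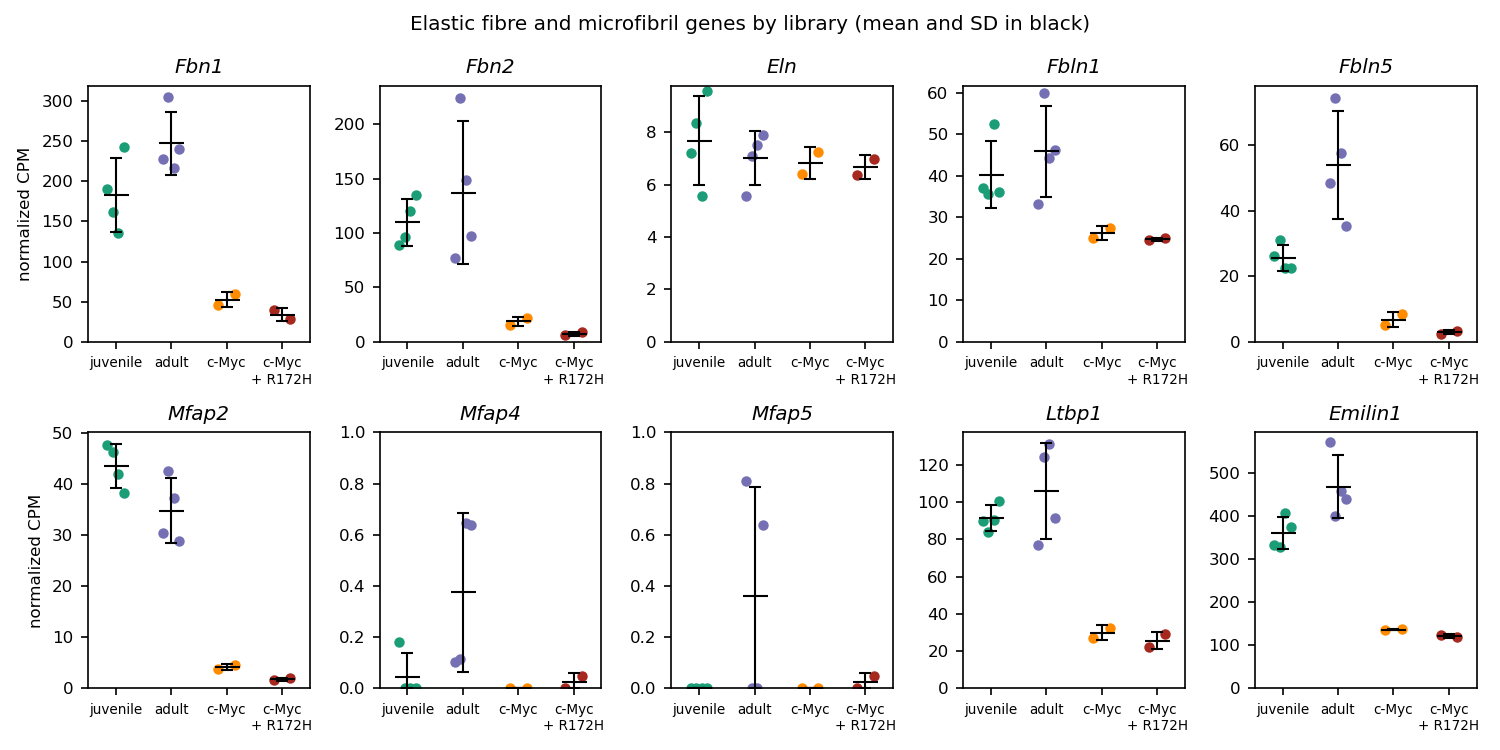
Normalized CPM (vertical axes, linear and starting at 0, on a different scale in each panel) of the 10 genes in juvenile, adult, *c-Myc* and *c-Myc* + *R172H* libraries, with 1 coloured point per library and the mean and SD in black (n = 4, 4, 2 and 2). All genes but *Eln*, *Mfap4* and *Mfap5* lie lower in the 4 induced libraries than in any juvenile library.

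The age comparison asked how juvenile osteoblasts differ from adult ones. *Fbln5* fell in juvenile osteoblasts and was the member that passed the test, an edgeR quasi-likelihood test with Benjamini-Hochberg adjustment at 0.05 over 11345 genes. The protein of *Fbln5* binds elastin and the crosslinking enzyme LOXL1 and is needed for elastic fibre assembly. Its level was 26.2, 30.9, 22.5 and 22.6 CPM in the juvenile libraries and 48.5, 74.5, 57.7 and 35.4 CPM in the adult ones. Every juvenile library lay below every adult one, as for 6.75% of all tested genes, and the juvenile mean was 2.12-fold lower (log2 fold change -1.08, SE 0.19, edgeR adjusted p = 0.00482). This was 1 of 8 members lower and 0 higher, where 3.23% of all tested genes were called lower and 1.89% higher. The summed fibroblast, chondrocyte and smooth muscle markers lay lower in every juvenile library than in any adult one, and their part in this difference was not tested. The members' median log2 fold change was -0.27, against 0.00093 over all tested genes.

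The fibrillins did not pass the test between the ages. *Fbn1*, the main fibrillin of microfibrils, stood at 190, 161, 136 and 243 CPM in juvenile libraries and at 228, 305, 216 and 240 CPM in adult ones, with overlapping groups (log2 fold change -0.44, SE 0.17, edgeR adjusted p = 0.131). *Fbn2*, which is most abundant in development, had 88.6, 96.0, 120 and 135 CPM in juvenile and 76.6, 224, 149 and 97.6 CPM in adult libraries. The adult libraries spread more widely than the juvenile ones, and the difference of -0.32 (SE 0.33, edgeR adjusted p = 0.675) became 0.027 without adult replicate 2, the highest library. *Emilin1* was at 335, 328, 407 and 375 CPM in juvenile and 572, 402, 460 and 441 CPM in adult libraries, where the lowest adult value lay just under the highest juvenile value (log2 fold change -0.38, SE 0.13, edgeR adjusted p = 0.105). *Emilin1* and *Fbn1* passed the threshold under other settings: with counts scaled to library totals (edgeR adjusted p = 0.0107 and 0.0177) or with no filter on low counts (0.0489 and 0.022), and *Emilin1* also with all 12 libraries in the fit (0.0443).

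The remaining members were close between the ages on the log2 scale. *Mfap2*, whose protein MAGP-1 decorates fibrillin filaments, had 47.7, 46.3, 42.0 and 38.3 CPM in juvenile and 30.5, 42.7, 37.4 and 28.9 CPM in adult libraries (log2 fold change 0.32, SE 0.15, edgeR adjusted p = 0.258). *Ltbp1*, which tethers latent TGF-β to fibrillin, differed by -0.22 (SE 0.15, edgeR adjusted p = 0.473). *Fbln1*, whose protein is found within elastic fibres and basement membranes, differed by -0.20 (SE 0.18, adjusted p = 0.604), and *Eln* by 0.12 (SE 0.28, adjusted p = 0.869), a sign that turned with library totals (-0.12). Of these, *Fbln1* and *Ltbp1* ranged from 35.7 to 52.4 and 84.2 to 101 CPM in juvenile libraries, inside the adult ranges of 33.3 to 59.9 and 76.9 to 131 CPM.

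The *c-Myc* comparison asked what induction of *c-Myc* changed in juvenile osteoblasts. Most of the microfibril genes fell: 6 of 8 tested members were called lower (edgeR adjusted p under 0.05 and at least a 2-fold change) and 0 higher, where 16.0% of 12588 tested genes were called lower and 18.4% higher. The median log2 fold change of the members was -1.73, against 0.037 over all tested genes. In 7 of the 8 members every *c-Myc* library lay below every juvenile one, as in 28.8% of all tested genes, and the same 7 were below in *c-Myc* + *R172H* libraries, as in 30.2%. The 4 juvenile control libraries serve both comparisons with induced cells, so those comparisons are not independent of each other. Induced and juvenile mice differed also in age at collection (5 weeks by the dissection notes, against 3), in time after tamoxifen, in dosing (2 daily doses in induced mice), in the length of bone kept (about 5 mm against 2 mm from the growth plate) and in sex. The tamoxifen dose was set per mouse in induced mice and by body weight in reporter mice. Doxycycline or tetracycline is described for the inducible mice or pregnant females only. None of these can be told apart from the transgenes.

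*Mfap2* had the largest decrease of the members. It fell from the juvenile values above to 3.79 and 4.65 CPM in *c-Myc* libraries, 10.5-fold lower (log2 fold change -3.40, SE 0.20, edgeR adjusted p = 5.94e-08). It stood at 1.56 and 1.98 CPM in *c-Myc* + *R172H* libraries, 24.5-fold lower than in juvenile ones (log2 fold change -4.61, SE 0.22, edgeR adjusted p = 9.12e-09). No induced library came near the juvenile minimum of 38.3 CPM. Its level per kb, second among the members in juvenile osteoblasts, was below those of *Emilin1*, *Fbln1* and *Fbn1* in *c-Myc* cells, at 3.48 CPM per kb.

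Both fibrillins fell, *Fbn2* further than *Fbn1* in the estimates. *Fbn1* was at 46.1 and 59.1 CPM with *c-Myc* (log2 fold change -1.82, SE 0.22, edgeR adjusted p = 2.05e-05) and at 39.3 and 28.0 CPM with *c-Myc* + *R172H* (-2.43, SE 0.23, adjusted p = 2.07e-06 against juvenile). *Fbn2* was at 15.8 and 21.7 CPM with *c-Myc* (log2 fold change -2.57, SE 0.21, edgeR adjusted p = 8.32e-07) and at 6.13 and 8.68 CPM with *c-Myc* + *R172H*, 14.7-fold lower than in juvenile osteoblasts (-3.88, SE 0.24, adjusted p = 4.76e-08). The ratio of *Fbn1* to *Fbn2* counts was 1.13 to 2.15 in juvenile, 1.36 to 2.98 in adult, 2.91 and 2.72 in *c-Myc* and 6.41 and 3.23 in *c-Myc* + *R172H* libraries. The induced libraries thus lay above every juvenile one, though *c-Myc* libraries lay within the adult range. Whether the fibrillins differ in their response was not tested. *Fbn1* shares 2442 exon bases with *Gm9913* on the opposite strand, and the strand setting of the counting is not given in the sources used here. Reads from the overlap cannot be assigned with certainty, and *Gm9913* itself had at most 2 counts in any library.

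*Fbln5*, *Ltbp1* and *Emilin1* fell as well. *Fbln5* was at 5.07 and 8.39 CPM with *c-Myc* (log2 fold change -1.96, SE 0.26, edgeR adjusted p = 4.64e-05) and at 2.52 and 3.42 CPM with *c-Myc* + *R172H* (-3.10, SE 0.29, adjusted p = 1.67e-06). The lowest juvenile library had 22.5 CPM. *Ltbp1* was at 90.0, 84.2, 90.4 and 101 CPM in juvenile libraries, 27.0 and 32.6 CPM with *c-Myc* (log2 fold change -1.64, SE 0.14, edgeR adjusted p = 1.38e-06) and 22.5 and 28.9 CPM with *c-Myc* + *R172H* (-1.82, SE 0.15, adjusted p = 4.92e-07). *Emilin1* had the smallest decrease of the 6 called members and was at 136 and 138 CPM with *c-Myc* (log2 fold change -1.42, SE 0.10, edgeR adjusted p = 2.68e-07) and at 124 and 118 CPM with *c-Myc* + *R172H* (-1.56, SE 0.10, adjusted p = 9.62e-08). For these 3 genes the replicates of each induced group lay far closer to each other than to any juvenile library.

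*Fbln1* and *Eln* were the exceptions among the tested members. *Fbln1* was at 37.1, 35.7, 52.4 and 36.0 CPM in juvenile libraries, 25.1 and 27.4 CPM with *c-Myc* and 24.5 and 24.9 CPM with *c-Myc* + *R172H*. The groups did not overlap and its log2 fold changes of -0.64 (SE 0.17, edgeR adjusted p = 0.00647) and -0.69 (SE 0.17, edgeR adjusted p = 0.00366) passed the test but not the 2-fold requirement, and both turned positive with library totals (0.20 and 0.36). The first missed the test without *c-Myc* replicate 1 (edgeR adjusted p = 0.0769) and without the libraries that expressed *Xist* (edgeR adjusted p = 0.0541). *Eln* overlapped in all groups, at 7.21, 8.36, 5.56 and 9.56 CPM in juvenile, 6.39 and 7.25 CPM in *c-Myc* and 6.36 and 6.99 CPM in *c-Myc* + *R172H* libraries. Its log2 fold changes against juvenile were -0.19 (SE 0.27, edgeR adjusted p = 0.576) and -0.20 (SE 0.27, edgeR adjusted p = 0.569), and 0.64 and 0.85 with library totals. With TMM scaling *Eln* mRNA was thus not detectably lower, although 6 of the 8 tested members were called lower.

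The scaling mattered for these directions. *Col1a1* alone took 33.4 to 39.1% of the counts in juvenile libraries and 5.61 to 11.3% in induced ones. When counts were scaled to library totals and not by TMM factors, the median log2 fold change of all genes shifted to 0.87 for *c-Myc* and 1.12 for *c-Myc* + *R172H* against juvenile, with 88.2% and 87.8% of called genes higher, against 53.6% and 52.2% with TMM. *Fbn2*, *Fbln5* and *Mfap2* kept their calls under library totals in both comparisons, and *Fbn1* in that of *c-Myc* + *R172H*. All 6 called members stayed called without any one library of the fit and without the libraries that expressed *Xist*.

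**Figure D2:**
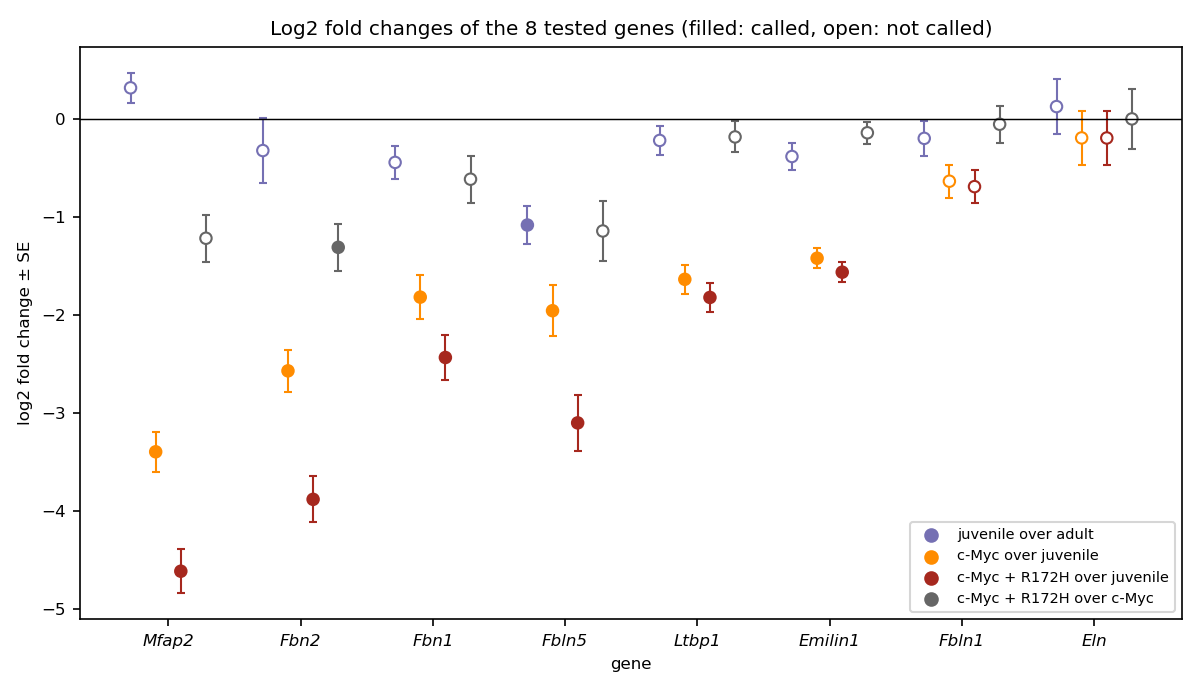
Log2 fold changes (points) and SE (bars) of the 8 tested genes in the 4 comparisons, coloured by comparison, with filled points for called genes and open points for genes not called (edgeR adjusted p under 0.05, with at least a 2-fold change required against juvenile for the induced groups). The decreases against juvenile were largest for *Mfap2* and *Fbn2* and absent from the calls for *Fbln1* and *Eln*.

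With *c-Myc* + *R172H* the 6 members named above were called lower than in juvenile osteoblasts and 0 higher, where 17.9% of all tested genes were called lower and 19.6% higher. The members' median log2 fold change was -2.13, against 0.076 over all tested genes. Summed over the 10 genes, the level per kb was 147 to 162 CPM per kb in juvenile, 166 to 196 in adult, 45.4 and 49.7 in *c-Myc* and 39.1 and 38.4 in *c-Myc* + *R172H* libraries. The make-up of this sum differed between the groups. *Mfap2* made up 23.3 ± 3.22% (SD, n = 4) of it in juvenile, 15.6 ± 2.12% (SD, n = 4) in adult, 7.30 ± 0.59% (SD, n = 2) in *c-Myc* and 3.78 ± 0.69% (SD, n = 2) in *c-Myc* + *R172H* libraries. *Fbln1* went the other way, from 5.94 ± 1.01% (SD, n = 4) in juvenile to 12.6 ± 0.033% (SD, n = 2) and 14.6 ± 0.36% (SD, n = 2) in the induced groups. *Emilin1* made up 47.1 ± 2.80% (SD, n = 4) in juvenile and 63.5 ± 1.49% (SD, n = 2) in *c-Myc* + *R172H* libraries. These shares come from ratios within a library, which the scaling does not alter, and they carry no test.

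**Figure D3:**
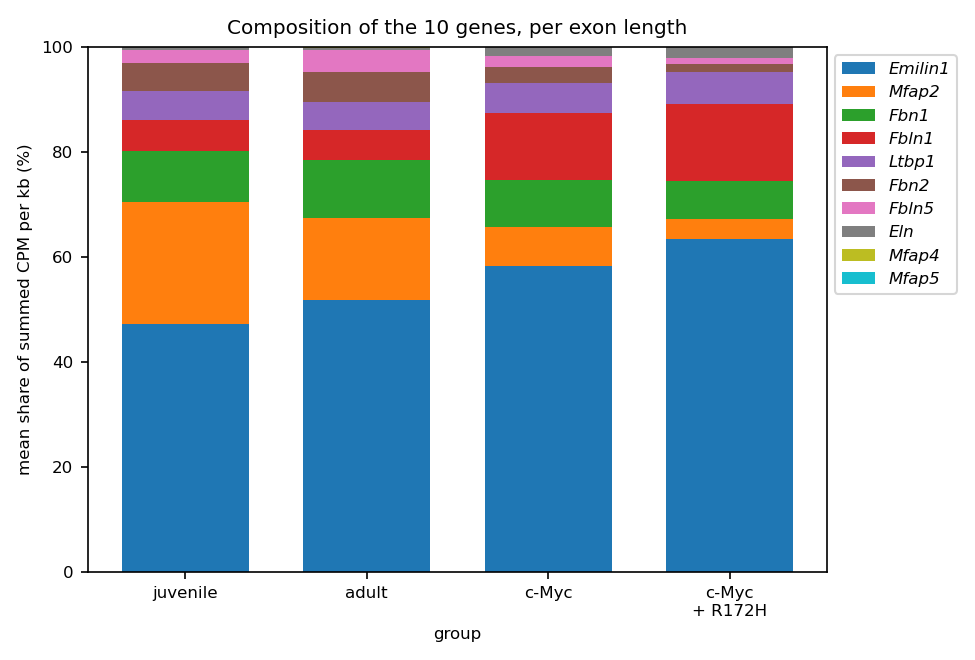
Mean share (%) of each gene in the summed CPM per kb of exon of the 10 genes (vertical axis), as stacked bars for juvenile (n = 4), adult (n = 4), *c-Myc* (n = 2) and *c-Myc* + *R172H* (n = 2) libraries. The *Mfap2* share shrinks from 23.3% in juvenile to 3.78% in *c-Myc* + *R172H* libraries, while those of *Fbln1* and *Emilin1* widen.

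The comparison of the induced groups asked what the p53 mutation added to *c-Myc*. *Fbn2* was the member called lower with *c-Myc* + *R172H* (log2 fold change -1.31, SE 0.24, edgeR adjusted p = 0.0349), 1 of 8, where 0.461% of 12588 tested genes were called lower and 1 gene was called higher. Its values of 6.13 and 8.68 CPM lay below those of 15.8 and 21.7 CPM with *c-Myc* alone. *Mfap2* (log2 fold change -1.22, SE 0.24, edgeR adjusted p = 0.0553) and *Fbln5* (-1.14, SE 0.30, adjusted p = 0.201) missed the threshold, which both passed with DESeq2 (adjusted p = 0.000952 and 0.0209). *Fbn1* differed by -0.62 (SE 0.24, edgeR adjusted p = 0.774), *Ltbp1* by -0.18 (SE 0.16), *Emilin1* by -0.14 (SE 0.11), *Fbln1* by -0.055 (SE 0.19) and *Eln* by -0.00071 (SE 0.31), the last 4 with an adjusted p of 1. The signs of these 4 turned positive with library totals. The members' median was -0.40, against -0.0028 over all genes, and 4 of 8 members had an unadjusted p under 0.05, as had 4.68% of all tested genes.

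The call of *Fbn2* between the induced groups was not stable. Its log2 fold change stayed between -1.62 and -1.09 in all 19 alternatives, but it passed the threshold in 11, with an edgeR or DESeq2 adjusted p from 1.62e-10 to 0.845. It was lost without juvenile replicate 1 (edgeR adjusted p = 0.054), juvenile replicate 2 (0.109), *c-Myc* replicate 2 (0.347), *c-Myc* + *R172H* replicate 1 (0.413) or *c-Myc* + *R172H* replicate 2 (0.092), and without both libraries that expressed *Xist* (0.381).

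The levels across the 4 groups followed one order for most members. Adult was the highest group for *Fbn1*, *Fbn2*, *Fbln1*, *Fbln5*, *Ltbp1* and *Emilin1*, with juvenile next. Of these, *Fbln5* alone had adult and juvenile libraries that did not overlap. *Mfap2* was highest in juvenile libraries, which overlapped with the adult ones. The *c-Myc* group followed and the *c-Myc* + *R172H* group was lowest for all 7 genes, and their libraries overlapped for *Ltbp1*. For the other 6 genes both *c-Myc* + *R172H* libraries lay below both *c-Myc* libraries, as for 27.5% of all tested genes, and *Fbln1* and *Emilin1* are among these 6 although their adjusted p was 1. *Eln* means ran from 7.67 CPM in juvenile to 6.68 CPM in *c-Myc* + *R172H* libraries, with neighbouring groups overlapping throughout.

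The genes most like the main fibrillin in pattern over the 12 libraries were sought among 13005 genes, as those with the smallest root mean square difference in centred log2 CPM. For *Fbn1* these were *Olfml2b* (0.19), *Itga9* (0.21) and *Adamts5* (0.21). For *Eln*, whose pattern was nearly flat, they were *Cdk13* (0.092), *Wasl* (0.11) and *Dgkq* (0.11).

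Other genes of elastic fibre assembly were examined in lists of 34 genes, chosen by their known roles but with earlier results of these data known. Their counts are therefore a description and no independent test. Between the ages, 29 of the 34 were tested, of which 2 were called higher and 6 lower in juvenile osteoblasts, where 1.89% of all tested genes were called higher and 3.23% lower. Their median was -0.063 on the log2 scale, against 0.00093 over all tested genes. *Fbln2*, a fibulin of basement membranes and elastic tissue, fell most, with a mean of 1.54 CPM in juvenile and 21.2 CPM in adult libraries (log2 fold change -3.77, SE 0.35, edgeR adjusted p = 3.11e-05). *Ltbp2*, a fibrillin-binding relative of *Ltbp1* that does not bind latent TGF-β, was lower too (-1.59, SE 0.22, adjusted p = 0.000704), and *Adamts17*, a secreted protease linked to fibrillin, was higher (1.16, SE 0.18, adjusted p = 0.0014). The crosslinking enzyme gene *Loxl2* (-0.83, SE 0.16, adjusted p = 0.00762), the ligand gene *Tgfb2* (-0.83, SE 0.21, adjusted p = 0.0305) and *Fn1*, the fibronectin on which microfibrils assemble (-0.69, SE 0.19, adjusted p = 0.0493), were lower in juvenile osteoblasts. *Tgfb1* was higher (0.55, SE 0.12, adjusted p = 0.0166). The summed chondrocyte markers were also higher in adult libraries, by the values given above, and their part in these differences was not tested.

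With *c-Myc*, 31 of the 34 genes were tested, and 1 was called higher and 19 lower, where 18.4% of all tested genes were called higher and 16.0% lower. Their median was -1.46 on the log2 scale, against 0.037 over all tested genes. All 5 lysyl oxidase genes, whose products crosslink elastin and collagen, were called lower. *Lox* had a mean of 1483 CPM in juvenile, 1067 in adult, 211 in *c-Myc* and 89.0 CPM in *c-Myc* + *R172H* libraries (log2 fold change -2.83, SE 0.13, edgeR adjusted p = 1.74e-08 for *c-Myc* over juvenile). The log2 fold change was -2.98 (SE 0.21) for *Loxl3* and -2.51 (SE 0.13) for *Loxl2*. *Fbln7*, a fibulin of cartilage, teeth and bone, fell from a mean of 19.5 to 1.01 CPM (log2 fold change -4.25, SE 0.59, edgeR adjusted p = 6.54e-05). *Efemp2*, which brings *Lox* protein to elastin, fell by 1.99 on the log2 scale (SE 0.11, edgeR adjusted p = 2.9e-08), and *Adamtsl1* by 2.44 (SE 0.63, edgeR adjusted p = 0.00567). *Fn1* fell by 2.43 (SE 0.11, edgeR adjusted p = 1.11e-08) and the fibrillin-processing protease gene *Furin* by 1.27 (SE 0.10, edgeR adjusted p = 6.98e-07). All 3 TGF-β ligand genes were called lower, and *Tgfb1* fell by 1.05 (SE 0.094, edgeR adjusted p = 1.46e-06).

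The other 12 of the 31 genes were not called lower with *c-Myc*, 11 of them not called in either direction. *Emilin2*, a relative of *Emilin1*, rose from a mean of 4.34 CPM (range 0.417 to 6.91) in juvenile to 38.1 CPM in *c-Myc* and 41.9 CPM in *c-Myc* + *R172H* libraries (log2 fold changes 3.06, SE 0.41, edgeR adjusted p = 6.09e-05, and 3.23, SE 0.41, edgeR adjusted p = 3.42e-05). *Ltbp3*, which holds latent TGF-β as *Ltbp1* does, differed by -0.73 (SE 0.11, edgeR adjusted p = 0.000134), below the 2-fold requirement. *Ltbp4* of the same list, named here after its values were seen, stood at 6.29 to 8.32 CPM in juvenile, 9.24 to 11.6 in *c-Myc* and 11.1 to 11.7 CPM in *c-Myc* + *R172H* libraries, with log2 fold changes over juvenile of 0.55 (SE 0.22, edgeR adjusted p = 0.0541) and 0.71 (SE 0.22, edgeR adjusted p = 0.0163), also below 2-fold.

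With *c-Myc* + *R172H*, 1 of the 31 genes was called higher than in juvenile osteoblasts and 21 lower, where 19.6% of all tested genes were called higher and 17.9% lower. Their median was -1.73, against 0.076 over all tested genes. *Fbln7* (-5.93, SE 0.70), *Lox* (-4.05, SE 0.14), *Loxl2* (-3.98, SE 0.14), *Loxl3* (-3.92, SE 0.22) and *Ltbp2* (-3.19, SE 0.47) had the largest decreases. Library totals lowered the number called lower to 10 in both comparisons with juvenile libraries, where 700 (*c-Myc*) and 868 (*c-Myc* + *R172H*) of 12588 tested genes were called lower. Against *c-Myc* alone, *Lox* (log2 fold change -1.21, SE 0.14, edgeR adjusted p = 0.00187) and *Loxl2* (-1.47, SE 0.14, edgeR adjusted p = 0.00131) were called lower and 0 of the 31 higher, where 0.461% of all tested genes were called lower.

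**Figure D4:**
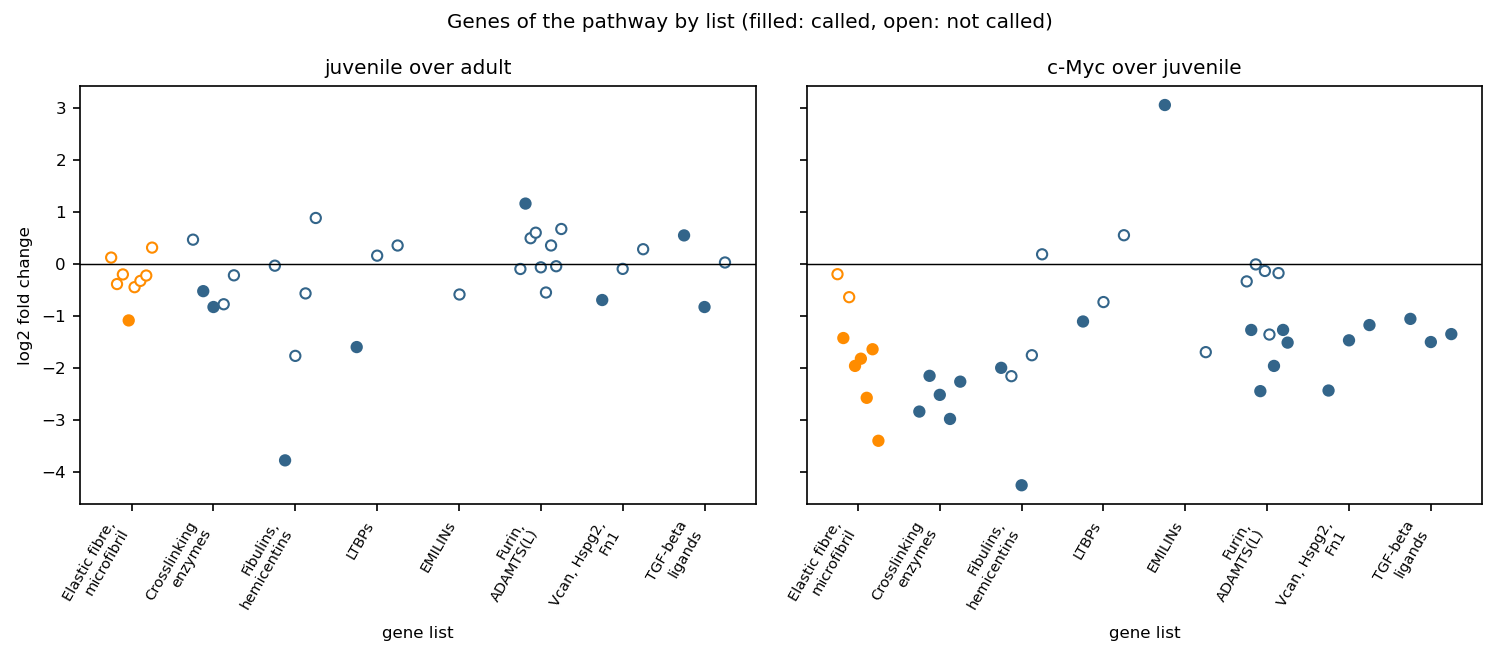
Log2 fold changes of the elastic fibre and microfibril genes (orange) and of the other pathway genes by list (blue), 1 point per tested gene, for juvenile over adult (left) and *c-Myc* over juvenile (right), with filled points for called genes and open points for genes not called. With *c-Myc* all 5 crosslinking enzymes lie below 0 and are called, and *Emilin2* lies at 3.06.

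In the GENCODE vM21 annotation of GRCm38 (mm10), only *Eln* and *Emilin1* share a chromosome. Their gene bodies are *Fbn1* (ENSMUSG00000027204) at chr2:125300594-125507993 on the minus strand, *Fbn2* (ENSMUSG00000024598) at chr18:58008623-58210487 on the minus strand, *Eln* (ENSMUSG00000029675) at chr5:134702593-134747323 on the minus strand, *Fbln1* (ENSMUSG00000006369) at chr15:85205949-85286535 on the plus strand and *Fbln5* (ENSMUSG00000021186) at chr12:101746565-101819055 on the minus strand. *Mfap2* (ENSMUSG00000060572) lies at chr4:141010418-141015984, *Mfap4* (ENSMUSG00000042436) at chr11:61485431-61488900, *Mfap5* (ENSMUSG00000030116) at chr6:122505845-122529290, *Ltbp1* (ENSMUSG00000001870) at chr17:75005568-75392512 and *Emilin1* (ENSMUSG00000029163) at chr5:30913402-30921277, all on the plus strand. *Eln* shares 267 exon bases with the antisense gene *Gm30003*, which had at most 3 counts in any library. *Fbn2* shares 129 with *Gm26507*, which has no entry in the count table. *Mfap4* shares 89 exon bases with *Mapk7* on the opposite strand, which had 56 to 211 counts per library. As the strand setting is not given, the few *Mfap4* counts cannot be assigned with certainty.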

How the data were processed

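Bulk RNA-seq of sorted mGFP+ metaphyseal cells was analysed in 12 libraries. Per the labels and methods, reads of 86 bp were trimmed by the authors (cutadapt 4.6), mapped to mm10 (STAR 2.7.11a) and, where unique, counted per gene (HTSeq 2.0.5). They deposited raw counts. GENCODE releases named for alignment and counting differ.

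Groups came from the titles. Counts were tested in R 4.3.3 with edgeR 4.0.16 (TMM, filterByExpr, robust quasi-likelihood F test, Benjamini-Hochberg adjustment at 0.05). The age fit held the 8 juvenile and adult libraries. The fit for the other comparisons held the juvenile and both induced groups, and a log2 fold change of at least 1 in size was required against juvenile. The SE is the log2 fold change over the square root of F, an approximation. CPM used TMM factors over all libraries, and kilobases the exon union of GENCODE vM21. Replicate pairs differed beyond sampling noise (chi-square per degree of freedom 5.45 to 136). Nothing states that all libraries came from separate litters, so p-values measure the spread between these samples. Detection floors cover counting error only. The procedure was tested on simulated data.

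Members and lists were chosen with earlier results of these data known. Named were all members and, of the pathway lists, up to 6 called genes per comparison with the largest change and the gene of highest mean CPM in each list. *Tgfb1*, *Ltbp3*, *Furin*, *Efemp2*, *Lox*, *Emilin2* and *Fn1* are those genes. Likeness used a pseudocount of 1 CPM. Alternatives were RLE and upper-quartile factors, library totals, 2 other filters, DESeq2 1.42.0, other libraries in the fit, a replicate block, no fold requirement and each library left out. Leaving out *Xist*-expressing libraries, or *Col1a1*, *Col1a2* and *Gm26917*, was chosen after seeing the data.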

Additional observations from a re-analysis of the deposited data

Results flagged for a closer look

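There were 20 sets of 4 libraries, each a member gene in the juvenile or the adult group. The highest or lowest library was compared with the rest by Dixon's gap ratio against its 95% critical value for 4 libraries. The juvenile *Mfap5* set, at 0 in every library, has no such ratio and was passed over. Chance exceeds the critical value in about 1 set in 20, and 2 sets exceeded it. *Fbln1* stood at 52.4 CPM in juvenile replicate 3, against 35.7 to 37.1 CPM in the other juvenile libraries (ratio 0.918). Without that library the log2 fold change of *Fbln1* with *c-Myc* was -0.50, against -0.64 with it. *Mfap4* stood at 0.183 CPM in juvenile replicate 1, which is 2 counts, against 0 in the others. Its ratio of 1 is the value that any single library above 0 gives, and it lies under the detection floor of 3 counts.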

How the results depend on the processing

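*Fbln5* kept its call between the ages in all 17 alternatives (log2 fold change -1.29 to -0.88), and the 6 members called against juvenile kept theirs in both comparisons under every alternative but library totals. Members called between the ages were 3 with library totals and with no filter on low counts (*Fbn1*, *Fbln5*, *Emilin1*) and 2 with all 12 libraries. With library totals, 3 members were called for *c-Myc* over juvenile and 4 for *c-Myc* + *R172H* over juvenile. Between the induced groups, where 1 was called, the count was 2 with RLE factors and with at least 10 counts in every library, 3 with DESeq2 and with only the 2 groups in the fit, 4 with no filter, 0 to 2 on leaving out 1 library, and by edgeR 0 with library totals, with all 12 libraries and without the *Xist*-expressing libraries (unadjusted p under 0.05 in 3, 4 and 3 members). The log2 fold changes that changed sign with library totals were those of *Eln* between the ages (-0.12), of *Eln* and *Fbln1* with *c-Myc* (0.64 and 0.20) and with *c-Myc* + *R172H* (0.85 and 0.36) over juvenile, and, between the induced groups, of *Eln* (0.21), *Fbln1* (0.16), *Ltbp1* (0.029) and *Emilin1* (0.070). *Eln* between the induced groups was also positive with upper-quartile factors (0.011), with only the 2 groups in the fit (0.0085) and on leaving out 1 library (-0.12 to 0.067), and *Fbn2* between the ages ran from -0.52 to 0.027 on leaving out 1 library. The cause was not tested. Over all genes, 581 were called between the ages and 284 to 1094 under the alternatives, and 59 between the induced groups and 3 to 629 under the alternatives; between the ages 6.26% of calls were higher with library totals, against 36.8%.

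The labels do not say that a replicate number in the titles marks a shared litter, batch or day, although replicate 2 was the *Xist*-expressing library in both induced groups. Libraries were matched by the number in the title, and the deposited names of the adult libraries carry other numbers than their titles. Deviations of libraries with the same title number from the group means correlated at -0.079 to 0.054 between the ages and at 0.17 between the induced groups. A match of the ages by library name was not tested. With a replicate block, 1 member was called between the ages, 6 in both comparisons with juvenile and 3 between the induced groups (*Fbn2*, *Fbln5*, *Mfap2*), with 326 genes called there in all. Depth limits *Mfap4* and *Mfap5*, which were not tested in the main fits. Their counts summed to 13 and 14 over the adult libraries, against 2 and 0 over the juvenile ones. With no filter on low counts they entered the fit of the ages and were not called.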
